A study of Mus musculus with 2 samples.

Results

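The miR-183 cluster is a group of 3 microRNA (miRNA) genes, Mir183, Mir96 and Mir182, that lie close together on mouse chromosome 6. They were taken by gene name out of the 1973 miRNA genes counted in newborn mouse hindbrain, and all 3 had reads in every library. MicroRNA-seq, the sequencing of small RNAs of under 30 nucleotides, was done on total RNA from the single hindbrains of 2 B6NCrl mice at postnatal day 0 (age 0 day). These were pup 1 (replicate 1) and pup 3 (replicate 2), which form 1 group with no treatment, transgene or allele named in the labels, the same donor identifier and no sex recorded. With no second condition, the questions open to these data are how much of each cluster gene the newborn hindbrain held and whether the 3 genes kept the same proportions in both pups.

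The 3 miRNAs are known to be transcribed together as 1 primary transcript, which the nuclear enzyme Drosha cuts into hairpin precursors and Dicer then trims to mature miRNAs. A mature miRNA guides Argonaute to mRNAs mainly through its seed, the bases from position 2 to 8. The cluster is known for its high level in sensory cells such as photoreceptors, hair cells of the inner ear, olfactory neurons and sensory ganglion neurons. Changes in the seed of miR-96 cause progressive hearing loss in mice and people.

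The mature sequences of the 5′ arms, from RefSeq on GRCm38.p6, are shown because their seeds (in capitals) are what relates the 3 genes to each other.
mmu-miR-183-5p: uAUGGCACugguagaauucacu
mmu-miR-96-5p: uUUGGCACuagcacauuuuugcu
mmu-miR-182-5p: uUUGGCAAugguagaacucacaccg
The 3 seeds differ from each other. Counting from 1 at the 5′ end, miR-183-5p and miR-96-5p differed in the first 8 bases by A2U (the base of miR-183-5p first), and miR-96-5p and miR-182-5p by C8A (the base of miR-96-5p first). The mRNA site that pairs with the whole seed is GUGCCAU for miR-183, GUGCCAA for miR-96 and UUGCCAA for miR-182. Beyond the seed the likeness ran the other way. Without gaps from the first base, miR-183-5p and miR-182-5p had 18 of 22 bases equal, against 13 of 22 for miR-183-5p and miR-96-5p and 12 of 23 for miR-96-5p and miR-182-5p.

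Among the 1738 mature sequences of the RefSeq table, no other shared the seed of miR-183-5p or miR-182-5p. The seed of miR-96-5p recurs in mmu-miR-1271-5p, encoded by the gene named Gm24195 on chromosome 13.
mmu-miR-1271-5p: cUUGGCACcugguaagcacuca
Gm24195 had 0 counts in both pups, which allows a level of at most 0.611 CPM (pup 1) and 0.481 CPM (pup 3), at 3 counts of the total. CPM is the counts of a gene on its own strand per 1000000 such counts of its library. No reads were thus counted for the other gene with the seed of miR-96-5p. The seed of the opposite arm, miR-96-3p, recurs in mmu-miR-3475-5p, and its gene Mir3475 had 488 counts in pup 1 and 521 in pup 3.

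Counts are per precursor gene and do not separate the 2 arms, so the precursors are shown with both annotated mature arms in capitals, on the minus strand of chromosome 6 in GRCm38 (mm10).
Mir183 precursor: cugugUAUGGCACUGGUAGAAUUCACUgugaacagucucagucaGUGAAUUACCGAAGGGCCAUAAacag
Mir96 precursor: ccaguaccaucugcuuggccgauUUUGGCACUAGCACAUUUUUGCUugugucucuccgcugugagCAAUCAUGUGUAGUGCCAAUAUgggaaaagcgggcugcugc
Mir182 precursor: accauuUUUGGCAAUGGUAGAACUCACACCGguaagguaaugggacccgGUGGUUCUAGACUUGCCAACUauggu
Mir183 (ENSMUSG00000065619.2) spans positions 30169668 to 30169737, Mir96 (ENSMUSG00000065586.1) spans 30169446 to 30169551 and Mir182 (ENSMUSG00000076361.1) spans 30165918 to 30165992. On the minus strand the order of transcription is Mir183, Mir96 and Mir182, with 116 bases between the first pair and 3453 bases between Mir96 and Mir182. In GENCODE M21 no other gene overlaps the 3820 bases from Mir183 to Mir182. The nearest annotated neighbours are Rncr4, a long noncoding RNA gene that starts 3155 bases upstream of Mir183 on the opposite strand, and the protein-coding gene Nrf1, which ends 12459 bases beyond Mir182, also on the opposite strand.

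Reads that match several genomic places were given to no gene by the authors, so copies elsewhere could hide counts. None of the 3 precursors shared a stretch of 20 bases with any of the other miRNA precursors of GENCODE M21, where 2202 precursors were compared in all. The longest stretch shared with another precursor was 11 bases for each of the 3. No other transcript of that annotation held any of their mature sequences. Matches in the rest of the genome were not examined.

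The tables held 4906127 own-strand miRNA gene counts for pup 1 and 6238680 for pup 3. Of the 1973 genes, 407 (20.6%) were detected, that is, had at least 2 CPM in each pup. Mir10a and Mir10b are miRNA genes within the Hox clusters, whose genes pattern the hindbrain. With no other tissue in the series, their levels describe these libraries and do not check the labelled tissue. Mir10a stood at 32189 and 24602 CPM in pup 1 and pup 3, and Mir10b at 19914 and 10051 CPM, while Mir196b, also of the Hox clusters, was low at 19.4 and 15.9 CPM. Intervals below are exact Clopper-Pearson intervals at 95% and cover counting error only, with each read taken as a separate molecule. The same holds for the p-values, which compare these 2 libraries and not conditions. How much other animals or other preparations would differ is not in them.

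Mir183 and Mir96 stood at similar levels in both pups, while Mir182 was about 3-fold higher in pup 1. Mir183, the first gene of the cluster, had 4386 counts in pup 1 and 5132 in pup 3. This was 894 CPM in pup 1 (interval 868 to 921) and 823 CPM in pup 3 (800.3 to 845), or 858 ± 50.5 CPM (SD, n = 2). Mir183 was thus slightly lower in pup 3 on library totals, and it ranked 115th in pup 1 and 109th in pup 3 among the 1973 genes.

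Mir96, the gene of the deafness-linked miRNA, had 2151 and 2288 counts in pup 1 and pup 3. Its level was 438 CPM in pup 1 (420.1 to 457) and 367 CPM in pup 3 (352 to 382), or 403 ± 50.7 CPM (SD, n = 2). It was the lowest of the 3 genes in both pups, at rank 152 in pup 1 and rank 154 in pup 3.

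Mir182, the last gene of the cluster, had 10136 counts in pup 1 but 4283 in pup 3, although the library of pup 3 was the deeper one. Its level was 2066 CPM in pup 1 (2026 to 2107) and 687 CPM in pup 3 (666 to 707), or 1376 ± 975 CPM (SD, n = 2). The pups lay 3.01-fold apart, and the SD is most of the size of the mean. Mir182 ranked 83rd in pup 1 and 122nd in pup 3.

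The order of the genes differed between the pups. In pup 1 it was Mir182, Mir183, Mir96 from high to low, and in pup 3 it was Mir183, Mir182, Mir96. The counting intervals of neighbours in these orders do not overlap within either library. Small RNA ligation and amplification can favour some sequences over others, so the order within a library need not be that in the tissue. The part of capture in the order was not tested. Over the 2 pups both Mir96 values lay below every Mir183 and every Mir182 value. The 2 values of Mir182 lie on either side of those of Mir183.

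**Figure D1:**
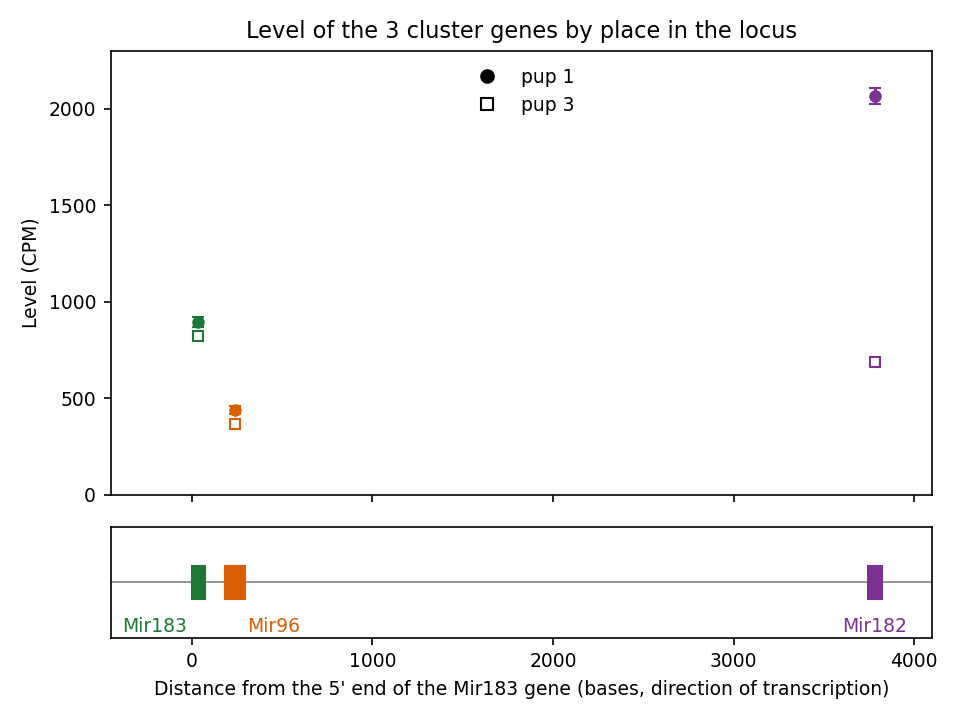
Level of each cluster gene in CPM (upper panel, bars are 95% counting intervals) against its distance in bases from the 5′ end of Mir183, with the 3 genes drawn to scale below. Filled circles are pup 1 and open squares pup 3. The 2 pups lie close together at Mir183 and Mir96 and far apart at Mir182, at 2066 and 687 CPM.

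The cluster as a whole had 16673 counts in pup 1 and 11703 in pup 3, which is 3398 and 1876 CPM, or 0.340% and 0.188% of own-strand counts. Of the gap of 1523 CPM between the pups, Mir182 accounted for 1379 CPM, or 90.6%. Mir183 and Mir96 together stood at 1332 CPM (pup 1) and 1189 CPM (pup 3). The summed level of the cluster thus moved mainly with 1 of its 3 genes.

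The make-up of the cluster differed accordingly. Mir182 made up 60.8% of cluster counts in pup 1 (60.0 to 61.5) and 36.6% in pup 3 (35.7 to 37.5). Mir183 made up 26.3% (25.6 to 27.0) and 43.9% (43.0 to 44.8). Mir96 made up 12.9% (12.4 to 13.4) and 19.6% (18.8 to 20.3). Shares of 1 whole are tied to each other, so the higher shares of Mir183 and Mir96 in pup 3 accompany the lower share of Mir182.

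**Figure D2:**
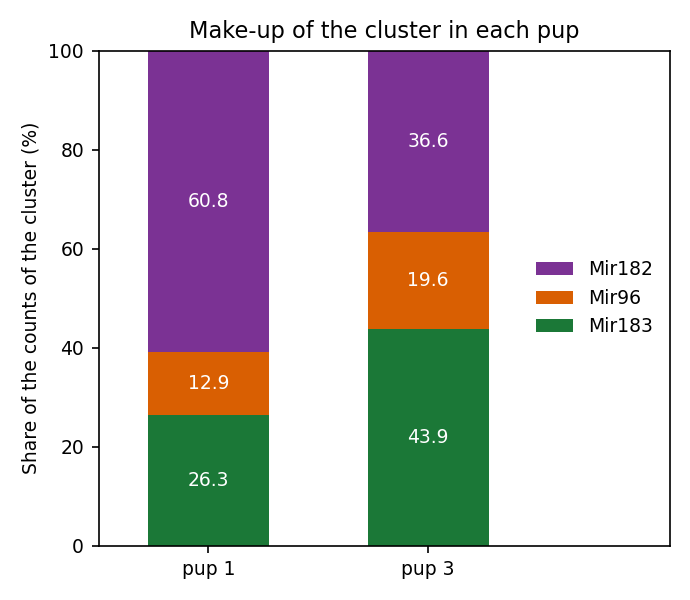
Share of the counts of the cluster, in percent, taken by each gene in pup 1 and pup 3. Mir182 is the largest part in pup 1, at 60.8%, and Mir183 in pup 3, at 43.9%.

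Ratios within a library need no scaling between libraries. There was 2.31 times as much Mir182 as Mir183 in pup 1 (2.23 to 2.39) but 0.835 times in pup 3 (0.801 to 0.869). The log2 ratio was lower in pup 3 by 1.47 (-1.47, SE 0.04; Fisher's exact test on the counts, two-sided, adjusted p = 3.22e-307, adjusted over the 3 pairs of members). The ratio of Mir182 to Mir96 was 4.71 (4.50 to 4.94) in pup 1 and 1.87 (1.78 to 1.97) in pup 3, a log2 difference of -1.33 with SE 0.05 (Fisher's exact test, adjusted p = 8.30e-152). Both ratios that involve Mir182 were thus more than 2-fold apart.

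The ratio of Mir96 to Mir183, the 2 genes that lie 116 bases apart, was 0.490 in pup 1 (0.466 to 0.517) and 0.446 in pup 3 (0.424 to 0.468). The log2 difference was -0.14 with SE 0.05 (Fisher's exact test, two-sided, adjusted p = 0.00920). It was past counting error but small, with 1.10 times the pup 3 ratio in pup 1. Mir183 exceeded Mir96 about 2-fold in each pup, and the mean ratio was 0.468 ± 0.0315 (SD, n = 2).

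In the comparison of pup 3 with pup 1 across all 508 genes with 10 or more counts, Mir182 was called lower in pup 3 and the others were not called. Each gene's counts were set by an exact binomial test against the library sizes as edgeR's TMM method corrects them for composition. A gene was called where its Benjamini-Hochberg adjusted p was under 0.05 and it differed at least 2-fold. So 1 of the 3 members was called, against 6.69% of all genes tested (5.71% called lower and 0.984% called higher in pup 3). The log2 difference of Mir182 was -1.45 (counting SE 0.03), and its exact binomial adjusted p was too small for double precision and returned as 0. On this scale it was 2.73-fold higher in pup 1 (2.64 to 2.83), less than the 3.01-fold of the CPM, which are on library totals. Log2 differences of genes carry a pseudocount of 1 CPM.

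Mir183 had a log2 difference of 0.02 with SE 0.03 (exact binomial test, adjusted p = 0.673). Mir96 had -0.12 with SE 0.04 (exact binomial test, adjusted p = 0.0136), past counting error but far under 2-fold. At any fold, 47.6% of all genes tested passed the adjusted p, 23.8% of all genes lower and 23.8% higher in pup 3, so passing at any fold was common at this depth. The sign of Mir183 depended on the scaling: with library totals it was -0.12 (exact binomial adjusted p = 1.45e-04) and with DESeq2 size factors 0.11 (adjusted p = 6.25e-04). Mir96 had -0.03 with DESeq2 size factors (exact binomial adjusted p = 0.651). The median log2 difference of the detected genes was -0.01 with TMM scaling and -0.14 with library totals. Relative to that median, Mir183 lay at 0.02 under both, Mir96 at -0.11 and Mir182 at -1.44 and -1.45.

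Set among the 407 detected genes, Mir182 was near the end of the distribution and Mir183 near its middle. The median absolute log2 difference was 0.27 and the 90th percentile 0.81. A larger absolute difference than that of Mir182 was seen in 8 genes, all lower in pup 3, while 390 genes differed more than Mir183 and 305 more than Mir96.

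**Figure D3:**
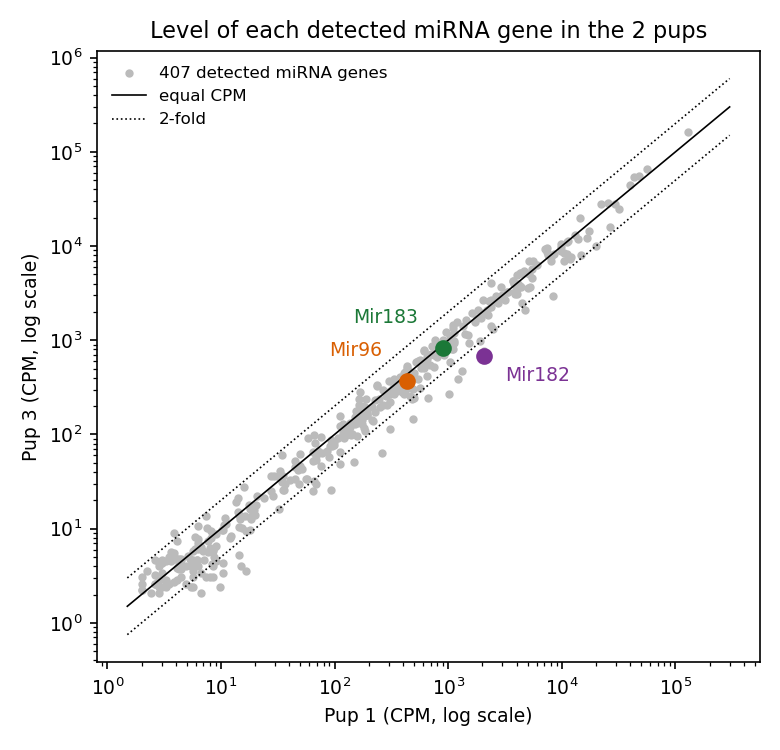
Level of the 407 detected miRNA genes in pup 1 (x axis) and pup 3 (y axis), in CPM on log scales, with lines at equal CPM and at 2-fold. Mir183 and Mir96 lie near the line of equal CPM and Mir182 lies below the lower 2-fold line.

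The genes with levels most like each member were found by distance in the plane of log2 CPM of the 2 libraries, so likeness rests on 2 values only. Nearest to Mir182 was Mir138-1, with 2078 and 772 CPM in pup 1 and pup 3 (distance 0.17), followed by Mir425 with 1898 and 975 CPM (0.52). Nearest to Mir183 were Mir219a-2, with 879 and 805 CPM, and Mir129-1, with 871 and 794 CPM. Nearest to Mir96 were Mir7-1, with 455 and 378 CPM, and Mir34a, with 432 and 391 CPM. Of these 6, Mir138-1, Mir219a-2, Mir129-1 and Mir7-1 share a stretch of 20 bases with another miRNA precursor, and reads that match both places are missing from their counts.

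To see how often neighbouring miRNA genes kept their ratio in these libraries, pairs on 1 strand within 10 kb were taken, with both genes at 100 CPM or more in both pups. There were 198 such pairs of 100 genes, and many pairs share a gene. The log2 ratio of the downstream to the upstream gene differed between the pups by a median of 0.30 in size, and by at least 1 (2-fold) in 32 pairs (16.2%). Mir182/Mir183 was the 11th in size and Mir182/Mir96 the 17th, while Mir96/Mir183 was the 152nd. The cluster therefore held both a pair with a larger change than most and a pair with a smaller change than most.

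The 5 largest differences all involved Mir668, of the imprinted miRNA region on chromosome 12, and were Mir668/Mir381 at -2.20, Mir668/Mir487b at -2.08, Mir154/Mir668 at 1.91, Mir369/Mir668 at 1.87 and Mir668/Mir134 at -1.83. Next to Mir182/Mir183 in size were Mir485/Mir668 at 1.47 and Mir16-2/Mir15b at -1.43, and next to Mir182/Mir96 were Mir376c/Mir667 at 1.34 and Mir541/Mir154 at -1.31. Next to Mir96/Mir183 were Mir1193/Mir758 at 0.14 and Mir543/Mir379 at -0.13. Chromosome 12 held 146 of the 198 pairs and 23 of the 32 with a 2-fold difference, 10 of them with Mir668, 7 with Mir667 and 6 with Mir541. On the other chromosomes 9 of 52 pairs differed 2-fold, and among these 52 Mir182/Mir183 had the largest difference and Mir182/Mir96 the fifth. Leaving out genes that share a stretch of 20 bases with another precursor, 4 pairs off chromosome 12 differed 2-fold, of 29: the 2 pairs with Mir182, Mir351/Mir322 at -1.17 and Mir542/Mir351 at 1.11. The split by chromosome and by shared stretches was chosen after the values were seen.

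**Figure D4:**
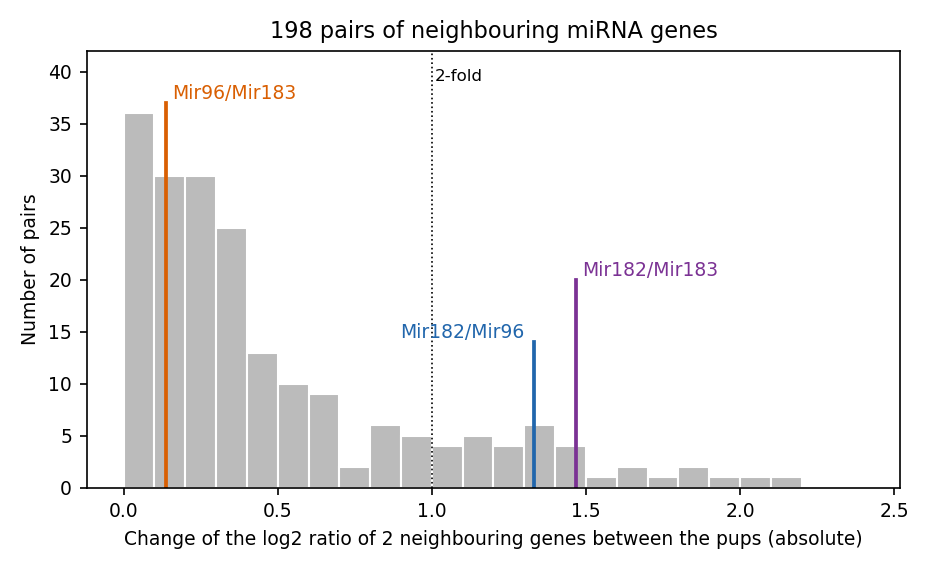
Number of pairs of neighbouring miRNA genes (y axis) by the absolute change of their log2 ratio between the pups (x axis), for 198 pairs, with the 3 pairs of the cluster marked and a dotted line at 2-fold. Mir96/Mir183 lies in the bulk at 0.14, and the pairs with Mir182 lie beyond 2-fold at 1.33 and 1.47.

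Marker miRNAs of cell types that a hindbrain dissection can hold were compared between the same libraries, in summed CPM. In bulk tissue fewer cells of a type and less RNA per cell cannot be told apart. The neuronal list, led by Mir137, had 7 of 9 genes detected and summed to 24230 CPM (pup 1) and 24439 CPM (pup 3). Within it Mir124a-1, at 14.9 and 4.01 CPM, and Mir124a-3, at 3.47 and 0.641 CPM, were called lower in pup 3. Their log2 differences with TMM scaling were -1.54 and -1.36. These are 2 of 9 genes, against 5.71% of all genes tested called lower, and with so few genes the share is uninformative. Both stood at low levels, and Mir124a-3 was under the detection limit of 2 CPM in pup 3. Mir124a-2, at 1.63 and 1.76 CPM, had a log2 difference of 0.16 and was not called. Mir153 was at 0.90 and not called either. Of the 9 neuronal genes, 7 share a stretch of 20 bases with another miRNA precursor, the 3 Mir124a genes among them, so reads at several places are missing from their counts. The choroid plexus, pigment epithelium and multiciliated list, led by Mir204, had all 7 detected, at 19044 and 17212 CPM. The epithelial list, led by Mir203, had all 7 detected, at 781 and 974 CPM. The log2 differences of these 3 sums (pup 3 minus pup 1, on library totals) were 0.01, -0.15 and 0.32 in the order given. On library totals the median detected gene was itself at -0.14. Each sum follows its most abundant genes, so members that moved apart can be hidden in it.

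The pituitary and endocrine list, led by Mir7b, had all 4 genes detected and summed to 3660 CPM (pup 1) and 2549 CPM (pup 3). The erythroid list, led by Mir451a, had all 3 detected, at 498 and 308 CPM. Both sums were lower in pup 3, as Mir182 was. No gene was called in either list, against 6.69% of all genes tested, so with so few genes the lack of calls is uninformative. With TMM scaling the members did not all go 1 way. In the erythroid list Mir451a had a log2 difference of -0.70, Mir144 of 0.88 and Mir486 of 0.22. In the endocrine list Mir7b had -0.61, Mir7-1 -0.13 and Mir7-2 -0.14, while Mir375 had 0.12. In CPM, the scale of the sums, all 4 endocrine genes were lower in pup 3, Mir375 only slightly at 465 and 459 CPM. The vessel list, led by Mir126a, had all 3 detected, at 55322 and 65476 CPM. The skeletal muscle list had 1 of 5 counted genes detected, Mir206, with Mir1a-1, Mir133a-1 and Mir133a-2 at 0 counts in both pups, and summed to 174 and 159 CPM. These 3 genes at 0 also share a stretch of 20 bases with another precursor, so their reads may have been left out as matching several places. The part of these cell types in the difference of Mir182 was not tested.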

How the data were processed

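Per the labels, microRNA-seq of RNAs under 30 nucleotides was done on 2 hindbrains, 1 library per pup. For each library the authors deposited raw read counts of every miRNA gene, on any strand, the gene's own strand and the opposite strand. The assembly (mm10) and annotation (M4) are those that the deposited text files name. The aligner and counter: not given in the sources used here. Rows that name no gene stayed out of totals: unmapped reads (17.7% and 13.9% of 12126529 and 14316243 reads), reads at several places (37.9% and 39.4%), reads in no feature on either strand (2.66% and 1.59%) and ambiguous reads (0). Own-strand counts were used. Of 1973 gene IDs, 1894 matched GENCODE M21 without version. Sequences are RefSeq's, and all 3 members matched.

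Scaling used edgeR 4.0.16 (TMM), with DESeq2 1.42.0 size factors as an alternative, and exact tests used scipy 1.17.1. With 1 group of 2 libraries no quasi-likelihood test was possible, so an exact binomial test per gene on all genes with 10 or more counts was used. The calling step was tested on simulated data. Named genes are the 3 members, the 2 nearest genes to each, seed relatives, up to 3 genes per marker list, the 5 largest pair differences and the pairs next to those of the cluster. The Hox-linked genes, Mir99a, Mir7-2, Mir124a-1, Mir124a-2, Mir124a-3, Mir153, Mir667 and Mir541 fall outside that rule. So do the pairs with Mir351 and the skeletal muscle genes at 0. All of these were named after their values were seen. Members, lists and tests were chosen with earlier results of these data known. Alternatives covered scaling, count minimum, strand column, denominator, pair limits and leaving out a pup.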

Additional observations from a re-analysis of the deposited data

Results flagged for a closer look

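Reads on the strand opposite to Mir183 were counted in both pups, 5 in pup 1 and 4 in pup 3, in a column that no comparison here used. They are listed because both are above the 3 counts that a count of 0 allows, with no control library to set them against. They compare with 4386 and 5132 counts on the gene's own strand. Pooled over all miRNA genes, opposite-strand counts made up 3.02% (pup 1) and 3.39% (pup 3) of counts on both strands. That pooled share need not be the share of a typical gene: Mir99a, the most abundant gene, had 0 in both pups. Whether 5 and 4 are many or few for 1 gene was not examined. Mir96 had 0 opposite-strand counts in both pups, and Mir182 had 3 and 1.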

How the results depend on the processing

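The call of Mir182 as lower in pup 3 held under every alternative of scaling, count minimum and strand column. Mir183 and Mir96 were called under none of them. For the change of the 3 ratios between the pups, the only alternative was counts on any strand. Those add at most 5 counts to a member in a library, so they could hardly move the ratios and did not test them. The log2 difference of Mir183 turned to -0.12 with library totals, as given above. With only genes of 100 or more counts tested, 18 genes were called lower in pup 3 and 0 higher, against 29 and 5, since fewer genes are tested. With DESeq2 size factors 25 were called lower and 8 higher, and with library totals 38 and 4. Levels follow the denominator by construction: without Mir99a, the most abundant gene, the mean was 1005 CPM for Mir183 and 471 CPM for Mir96, and per 1000000 reads of any kind it was 360.1 for Mir183, 169 for Mir96 and 1096 for the cluster. Pairs of neighbouring genes 2-fold apart numbered 21 of 123 within 5 kb, 61 of 390 within 50 kb, 43 of 310 at 10 CPM or more, 7 of 70 at 500 CPM or more and 9 of 52 outside chromosome 12 (chosen after seeing the data). At 500 CPM Mir96 drops out and Mir182/Mir183 had the largest difference of the 70. Leaving out a pup gives the value of the other alone, so the mean CPM of Mir182 ranged from 687 to 2066 and the ratio of Mir182 to Mir183 from 0.835 to 2.31. With 1 library left there is no difference to test. No paired analysis was possible because the series has 1 group. Counts limit the members little; the 2 pups limit any statement about animals.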
